A study of Mus musculus with 2 samples.

Results

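Nuclear receptors, the proteins that bind and coregulate them, and the genes that handle retinoids were compared between mouse morulae that had received LIF-siRNA and morulae that had received scrambled siRNA. The genes were chosen by a rule on names that was set with earlier results of these data known. A gene spot was included when its name in the scanner files began with 1 of 17 terms, such as nuclear receptor, retinoic acid, retinoid, retinol, estrogen, thyroid hormone receptor, vitamin D or RAR-related. This gave 49 of 8735 gene spots, each with a name of its own. By their names 21 are receptors, 13 are coregulators or receptor partners, 8 bind, take up or convert retinoids, and 7 are named for a hormone or for induction by retinoic acid.

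Zygotes of the strain B6CBF1 were injected with siRNA at the pronuclear stage and cultured, and RNA of pooled whole embryos was taken at the morula stage, labelled as an age of 4 d. The study asked how a shortage of leukemia inhibitory factor (LIF), a cytokine of the reproductive tract and the embryo, acts on growth before implantation. One group received siRNA against LIF and its RNA was labelled with Cy5. The other received scrambled siRNA and was labelled with Cy3. Both were injected in the same way, with 1.0 fmol by the labels and a higher dose by the methods, so injection itself is shared by both groups. Each of 2 arrays held both groups with the same dye order. A dye effect and the siRNA therefore cannot be told apart. Where nothing says that the arrays held separate pools, the p-values rest only on spread between these arrays, which may be technical. In limma the spread of each gene is drawn toward a value shared by all probes. A description in the labels speaks of embryonic stem cells, whereas the titles and RNA sources name embryos and were followed here. No spot is named for LIF, so the knockdown was not measured on these arrays. The study reported signs of lowered LIF protein by staining of blastocysts. Of the pluripotency markers sought, 4 spots were found and all were detected, with summed processed signals of 16417 and 18015 in Cy5 and 19952 and 21151 in Cy3. Of these, SRY-box containing gene 2 (Sox2) was lower after LIF-siRNA, with a mean log2 ratio of -2.35 (SD 0.92, n = 2), and undifferentiated embryonic cell transcription factor 1 had -1.12 and -0.77. Cadherin 1 had 0.69 and 0.26, and Pou5f1 (Oct4) had -0.28 and 0.05. Of the trophectoderm markers 2 spots were found, with sums of 3908 and 4844 in Cy5 and 7494 and 12250 in Cy3, and keratin 8 alone had 1708 and 2131 in Cy5 and 5679 and 9530 in Cy3. Eomesodermin, the other spot, had log2 ratios of 0.28 and -0.0042. Cumulus cell markers had 3 spots, with sums of 585 and 439 in Cy5 and 285 and 217 in Cy3, and of these only inhibin beta-B was higher on both arrays, with 487 and 314 in Cy5 and 123 and 102 in Cy3. Inhibin beta-C was not detected and tumor necrosis factor induced protein 6 had a mean log2 ratio of -0.20. Hemoglobin chains had 5 spots, with sums of 1899 and 1762 in Cy5 and 4247 and 3745 in Cy3, most of it from hemoglobin X, with 1610 and 1421 in Cy5 and 3979 and 3439 in Cy3. The 2 spots of the adult major beta chain had mean log2 ratios of -0.19 and 0.76, and hemoglobin Y had 0.10. Hemoglobin Z had deposited log2 ratios of -0.25 and -0.96, with Cy5 not well above background on either array. No spot was named for a zona pellucida glycoprotein. The part of these markers in the values below was not tested, and in pooled embryos fewer cells of a type and less RNA per cell cannot be told apart.

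Nuclear receptors are transcription factors that carry a DNA-binding domain and, in most, a pocket for a small fat-soluble ligand such as retinoic acid, thyroid hormone, vitamin D, a steroid or an oxysterol. Several of them, among them the retinoic acid, thyroid hormone, vitamin D and liver X receptors, bind DNA as a pair with a retinoid X receptor (RXR). Corepressors sit on many of these pairs without ligand, and ligand exchanges them for coactivators and the Mediator complex. COUP-TF receptors are orphans that often compete for the same DNA elements, and retinoic acid drives differentiation of embryonal carcinoma and embryonic stem cells.

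The values are the deposited ratios of Cy5 to Cy3, given here as log2, so that 1 is a doubling after LIF-siRNA and -1 a halving. Of the 49 genes, 42 had on each array a channel well above background and were tested with limma. The other 7 were not, namely Pparg, Rara, Nr1h4, Nr1i2, Ncoa2, Crabp1 and retinol dehydrogenase type 5. The SE printed with a mean is limma's, with each variance drawn toward a value shared by all probes. Where the arrays differed much, it is smaller than an SE of the 2 values alone. No gene passed limma's adjusted p-value of 0.05, nor did any of the 8079 probes tested on the array, a background of 0%. The smallest adjusted p-value over all probes was 0.0580, and centring each array on its median, which moved the mean log2 ratios by -0.000848, brought Vdr, Nr2f2, Thra, Nrbf1 and Rbp2 under the threshold, 5 of 42 beside 4.27% of all probes. Of these 5, Rbp2 was tested through its Cy5 signal, with Cy3 not well above background on either array. At an unadjusted p-value under 0.05, 10 genes were higher and 4 were lower, against 15.9% and 14.8% of all probes. Among the 10 higher, the Cy3 signal was not well above background for Rbp2 on either array and for Crabp2 on array 2. The methods' t-test gave 0 genes after adjustment and 2 of 42 at an unadjusted p-value under 0.05, against 10.7% of all probes. The study's criteria ask for a ratio above 2 or below 0.5 and an intensity above 1000 in either dye. Its methods do not say how the arrays were combined or which intensity was used, and here the geometric mean of both arrays and the mean processed signal were taken. By this rule 3 of the 16 genes past the signal threshold were higher, and all 3 are receptors. Thra passed the signal threshold in both dyes. Nr2f2 and Rarg passed it only in Cy5, the dye in which they were higher, with mean Cy3 signals of 335 and 687. The same rule called 5.33% of all spots past that threshold as higher. It called 0 of the 16 as lower, against 5.42% of all spots. The deposited ratio was above 2 on both arrays for 6 of the 42 genes, against 2.78% of all probes, and for 1 of the 6, Rbp2, it was taken against a Cy3 signal not well above background. It was below 0.5 on both arrays for 1 of 42, against 3.03%. Both Cy5 signals were above both Cy3 signals for 15 of the 42 genes, against 31.4% of all probes, and below them for 12, against 31.2%. In the plot of the tested genes on both arrays, the 6 highest mean ratios are those of receptors.

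**Figure D1:**
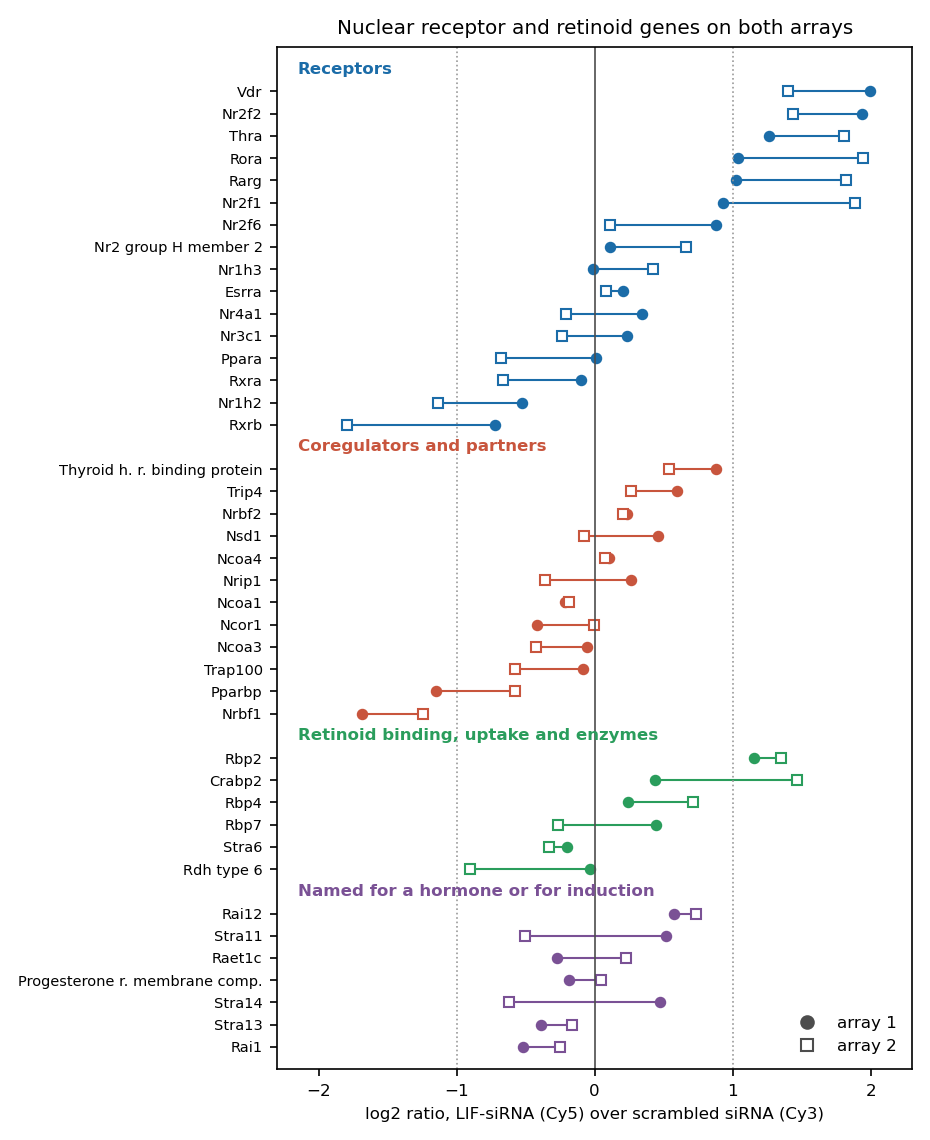
Log2 ratio of LIF-siRNA over scrambled siRNA (x axis) for 41 of the 42 tested genes (y axis), grouped by role and ordered by the mean, with array 1 as filled circles, array 2 as open squares and dotted lines at a ratio of 2 and 0.5. Vdr, Nr2f2, Thra, Rora, and Rarg lie past the right dotted line on both arrays, Rbp2 is drawn there against a Cy3 signal not well above background, and Nrbf1 alone lies past the left one on both.

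Among the 17 receptors tested, 10 had ratios above 1 on both arrays, 3 had ratios below 1 on both and 4 were mixed. Across all probes the shares were 36.7% above 1 and 36.8% below 1. The median log2 ratio of the receptors was 0.23 (0.24 on array 1 and 0.37 on array 2) and the middle of their range ran from 0.00 to 1.42 (quartiles), beside a median of 0.00 over all probes with quartiles of -0.40 and 0.39. The receptors thus included 6 genes with a mean log2 ratio of 1.41 to 1.70, then a step down to 0.49 for the next one.

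Thyroid hormone receptor alpha (Thra), the receptor that binds thyroid hormone and recruits corepressors without it, had processed signals of 8092 in Cy5 and 3378 in Cy3 on array 1, and of 5125 in Cy5 and 1465 in Cy3 on array 2. The LIF-siRNA signal was above both scrambled-siRNA signals on each array. The mean log2 ratio was 1.53 ± 0.24 (SE, n = 2), a ratio of 2.90, with an adjusted p-value of 0.0607 by limma. Thra overlaps Nr1d1, which encodes a heme-binding repressor of the clock, in the RefSeq annotation, and which of them the spotted cDNA reads was not tested.

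Retinoic acid receptor gamma (Rarg), one of the receptors for all-trans retinoic acid, had signals of 1831 in Cy5 and 899 in Cy3 on array 1 and of 1678 in Cy5 and 474 in Cy3 on array 2. The 2 Cy5 values lay close together and above both Cy3 values. Array 1 gave a log2 ratio of 1.03 and array 2 one of 1.82, with a mean of 1.42 ± 0.27 (SE, n = 2), a ratio of 2.68 and an adjusted p-value of 0.0711 by limma. The spot named for retinoic acid receptor alpha (Rara) was not well above background in either channel of either array, so no ratio can be given for it.

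The COUP-TF receptors are orphan receptors that bind the same kind of DNA repeats as the retinoid receptors. The spot for Nr2f2, named as member 2 of group F, had signals of 1378 in Cy5 and 359 in Cy3 on array 1, and of 845 in Cy5 and 311 in Cy3 on array 2. Both Cy5 values were above both Cy3 values. The mean log2 ratio was 1.69 ± 0.24 (SE, n = 2), a ratio of 3.23, with the lowest adjusted p-value among the 42 genes, 0.0592 by limma. Its close paralog Nr2f1 had signals of 454 and 640 in Cy5 and of 238 and 173 in Cy3. The mean log2 ratio of Nr2f1 was 1.41 ± 0.30 (SE, n = 2), with 0.93 on array 1 and 1.88 on array 2 (adjusted p = 0.0781 by limma). These paralogs share sequence, and a spotted cDNA could bind transcripts of both. Nr2f6, the more distant member of the group, had log2 ratios of 0.88 and 0.11, and on array 2 its signals of 154 and 143 barely differed. The log2 ratio of Nr2f2 exceeded that of Nr2f6 by 1.06 on array 1 and 1.33 on array 2.

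RAR-related orphan receptor alpha (Rora), a receptor that binds single half-sites as a monomer, had signals of 414 and 465 in Cy5 and of 202 and 121 in Cy3. The groups did not overlap. The mean log2 ratio was 1.49 ± 0.29 (SE, n = 2), a ratio of 2.81 (adjusted p = 0.0721 by limma).

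Vitamin D receptor (Vdr) had the highest mean log2 ratio of all 42 genes, 1.70 ± 0.25 (SE, n = 2; adjusted p = 0.0596 by limma), and rested on dim signals. They were 103 in Cy5 and 25.9 in Cy3 on array 1, and 182 in Cy5 and 69.1 in Cy3 on array 2. In Cy3 the spot outshone 85.8% of blanks on array 1 and 95.03% on array 2. With normexp background correction and loess in place of the deposited processing the mean log2 ratio of Vdr was 0.69.

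The sequences before the transcription start are shown for 4 of the receptors with a ratio above 2 on both arrays, because their ratios were high together and because receptors of this family bind the half-site AGGTCA. They run from 250 bases before to 50 bases after the start, 5′ to 3′ on the gene's strand, from RefSeq on GRCm38.p6. Capitals mark AGGTCA or its reverse complement.
Rarg promoter, chr15:102257473-102257772, minus strand: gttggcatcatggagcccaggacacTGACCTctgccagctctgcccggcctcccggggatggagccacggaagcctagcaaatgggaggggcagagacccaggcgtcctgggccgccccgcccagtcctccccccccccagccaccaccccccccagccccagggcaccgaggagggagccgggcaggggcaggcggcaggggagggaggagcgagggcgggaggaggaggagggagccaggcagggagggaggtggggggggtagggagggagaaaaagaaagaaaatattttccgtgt
Nr2f2 promoter, chr7:70366697-70366996, minus strand: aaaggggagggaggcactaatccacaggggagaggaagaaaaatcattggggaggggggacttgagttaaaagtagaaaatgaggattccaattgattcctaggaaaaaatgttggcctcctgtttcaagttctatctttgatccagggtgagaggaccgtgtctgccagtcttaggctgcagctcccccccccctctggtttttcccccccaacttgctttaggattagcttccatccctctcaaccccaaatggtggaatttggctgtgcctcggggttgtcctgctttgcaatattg
Rora promoter, chr9:68653536-68653835, plus strand: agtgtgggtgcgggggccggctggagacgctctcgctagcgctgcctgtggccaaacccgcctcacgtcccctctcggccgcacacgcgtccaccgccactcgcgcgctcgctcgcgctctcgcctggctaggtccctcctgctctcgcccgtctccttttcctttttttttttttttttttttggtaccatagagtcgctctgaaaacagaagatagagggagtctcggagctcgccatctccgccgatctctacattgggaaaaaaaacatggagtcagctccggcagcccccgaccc
Vdr promoter, chr15:97908247-97908546, minus strand: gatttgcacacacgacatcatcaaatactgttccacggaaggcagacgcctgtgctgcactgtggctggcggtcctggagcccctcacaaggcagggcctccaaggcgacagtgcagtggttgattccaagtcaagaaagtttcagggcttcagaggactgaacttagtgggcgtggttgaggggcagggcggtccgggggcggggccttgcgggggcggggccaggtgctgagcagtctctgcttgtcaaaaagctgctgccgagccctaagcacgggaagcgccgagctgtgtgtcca
Rarg has a second start with no match, and Thra has no entry in the promoter table. The search covered both strands, and the windows shown hold 1 match in all, in Rarg. Over all 32851 promoters of this length, 16.3% held the half-site. Symbols were found for 42 of the 49 genes, 36 as current symbols and 6 as synonyms, and 32 had promoters in the table. Of their 52 promoters, 9 held the half-site, a share of 17.3%. Among the genes with a deposited ratio above 2 on both arrays, 2 of 6 promoters held it, those of Rarg and Rbp2. A match of these letters is a description of the window, not a bound site.

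**Figure D2:**
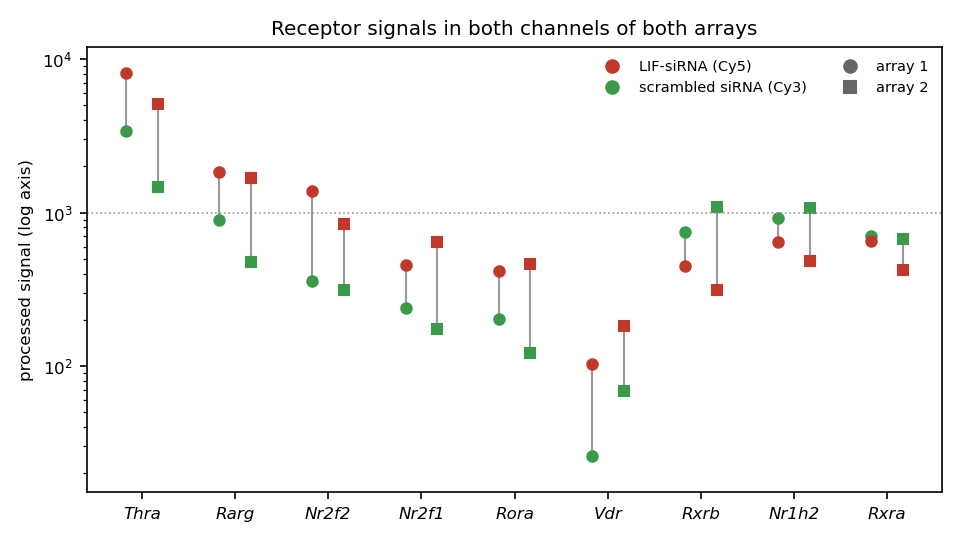
Processed signal (y axis, log scale) of 9 receptors in LIF-siRNA-treated morulae (Cy5, red) and scrambled-siRNA-treated morulae (Cy3, green), with array 1 as circles and array 2 as squares, each pair of channels joined by a line and the signal threshold of 1000 dotted. Red lies above green for Thra, Rarg, Nr2f2, Nr2f1, Rora and Vdr on both arrays, and below it for Rxrb, Nr1h2 and Rxra.

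The RXR partners had ratios below 1. Retinoid X receptor beta (Rxrb), an obligate partner of many of the receptors above, had signals of 451 in Cy5 and 746 in Cy3 on array 1, and of 315 in Cy5 and 1095 in Cy3 on array 2. Both Cy5 values were below both Cy3 values. The mean log2 ratio was -1.26 ± 0.32 (SE, n = 2), a ratio of 0.417, with an adjusted p-value of 0.0934 by limma. The arrays differed in size, with log2 ratios of -0.72 and -1.80 and an SD of 0.76. The mean Cy3 signal was 921, so that the spot missed the signal threshold of the criteria. Retinoid X receptor alpha (Rxra) had log2 ratios of -0.10 and -0.66, with 656 and 422 in Cy5 and 702 and 668 in Cy3, and a mean of -0.38 ± 0.24 (SE, n = 2; adjusted p = 0.347 by limma). The log2 ratio of Rarg exceeded that of Rxrb by 1.75 on array 1 and 3.62 on array 2, and that of Rxra by 1.12 and 2.48. No spot is named for retinoid X receptor gamma.

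The liver X receptors sense oxysterols and pair with RXR. The ubiquitous form, Nr1h2, had signals of 645 and 486 in Cy5 and of 928 and 1064 in Cy3, so that the groups did not overlap. Its mean log2 ratio was -0.83 ± 0.25 (SE, n = 2; adjusted p = 0.111 by limma), and its mean Cy3 signal of 996 also stayed just under the signal threshold. The other form, Nr1h3, known from liver and macrophages, had log2 ratios of -0.01 and 0.42. The bile acid receptor Nr1h4 and the xenobiotic receptor Nr1i2 were each above background in 1 channel of 1 array and were not tested.

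The remaining receptors lay closer to a log2 ratio of 0. Estrogen related receptor alpha (Esrra), a regulator of mitochondrial genes, had log2 ratios of 0.20 and 0.08. The glucocorticoid receptor Nr3c1 had 0.24 and -0.24, and the immediate early receptor Nr4a1 had 0.34 and -0.21, with Cy5 signals of 811 and 346 that differed more between the arrays than between the dyes. The spot named nuclear receptor subfamily 2, group H, member 2 had 0.11 and 0.66. Peroxisome proliferator activated receptor alpha (Ppara), which drives fatty acid oxidation, had 0.01 and -0.68, and its mean of -0.34 was 0.00 after normexp and loess. Peroxisome proliferator activated receptor gamma (Pparg), the receptor of fat cells, was not well above background in either channel.

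The coregulators and partners as a group had a median log2 ratio of -0.12, which was 0.027 on array 1 and -0.13 on array 2, with 4 of the 12 tested above 0 on both arrays, 6 below 0 on both and 2 mixed. The p160 coactivators bring acetyltransferases to receptors with ligand. Nuclear receptor coactivator 3 (Ncoa3) had signals of 11384 and 10664 in Cy5 and of 11814 and 14326 in Cy3, and a mean log2 ratio of -0.24 ± 0.22 (SE, n = 2; adjusted p = 0.504 by limma). Ncoa1 had a mean log2 ratio of -0.20 and Ncoa2 was not well above background in any channel. The androgen receptor coactivator Ncoa4, which also carries ferritin to lysosomes, had log2 ratios of 0.11 and 0.08.

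The corepressor Ncor1, which recruits histone deacetylase 3 to receptors without ligand, had log2 ratios of -0.42 and -0.00 on dim signals of 55.0 to 89.8. Nrip1, a corepressor that binds receptors with ligand, had 0.27 and -0.36. The histone methyltransferase Nsd1 had 0.46 and -0.08. The 95% confidence intervals of the mean log2 ratio were -0.80 to 0.38 for Ncor1 and -0.70 to 0.61 for Nrip1, so changes within those bounds were not resolved.

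Mediator subunits carry signals from receptors to RNA polymerase. Peroxisome proliferator activated receptor binding protein (Pparbp, now Med1), the subunit with receptor-binding motifs, had signals of 153 and 221 in Cy5 and of 339 and 330 in Cy3. The groups did not overlap, and the mean log2 ratio was -0.86 ± 0.24 (SE, n = 2; adjusted p = 0.103 by limma). The subunit of 100 kDa (Trap100, now Med24), a neighbour of Thra on the chromosome, had log2 ratios of -0.08 and -0.58. The log2 ratio of Thra exceeded that of Trap100 by 1.34 and 2.39.

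Nuclear receptor binding factor 1 (Nrbf1) was the only gene of the 49 with a ratio below 0.5 on both arrays among those tested. It had signals of 93.1 and 125 in Cy5 and of 300 and 296 in Cy3, close together within each dye. The mean log2 ratio was -1.46 ± 0.23 (SE, n = 2), a ratio of 0.363, with an adjusted p-value of 0.0607 by limma. RefSeq lists Nrbf1 as a synonym of Mecr, the enoyl reductase of mitochondrial fatty acid synthesis, so its name as a receptor partner is not its best known role. Nrbf2, a subunit of the autophagy lipid kinase complex, had log2 ratios of 0.23 and 0.20.

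The thyroid hormone receptor binding protein had signals of 7143 and 5817 in Cy5 and of 3884 and 4010 in Cy3, and a mean log2 ratio of 0.71 ± 0.22 (SE, n = 2; adjusted p = 0.118 by limma). Both Cy5 values were above both Cy3 values. Thyroid hormone receptor interactor 4 (Trip4), a subunit of the ASC-1 coactivator complex, had log2 ratios of 0.59 and 0.26.

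Among the genes that bind, take up or convert retinoids, 6 were tested, and 3 were higher on both arrays, 2 lower on both and 1 mixed, with a median log2 ratio of 0.28. The median was -0.089 over the 4 genes with both channels well above background, without Rbp2 and Crabp2, and 0.096 after normexp and loess. Cellular retinol binding protein 2 (Rbp2), which carries retinol in the absorptive cells of the gut, had signals of 43.4 and 53.1 in Cy5 and of 19.5 and 20.8 in Cy3. The Cy3 signal was not well above background on either array, so only a bound can be given. Rbp2 was at least 1.91-fold higher after LIF-siRNA, with the normalized Cy5 mean set against the lowest signal well above background or its own Cy3 signal, whichever was higher, a bound open to dye bias without a swap. Its adjusted p-value of 0.0631 by limma belongs to the deposited ratio, whose Cy3 values were not well above background, and is no support for the bound.

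The cellular retinoic acid binding proteins carry retinoic acid inside the cell, and Crabp2 hands it to the receptors. Crabp2 had signals of 40.4 and 44.3 in Cy5 and of 29.8 and 16.0 in Cy3, and the Cy3 signal was well above background on array 1 only. The log2 ratio there was 0.44. The deposited mean over both arrays had an adjusted p-value of 0.126 by limma and includes the Cy3 value of array 2 that was not well above background. Crabp1 was well above background only in Cy5 of array 2, where its signal was 93.9 beside 11.9 on array 1. No ratio is given for it, and it was not tested.

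Plasma retinol binding protein (Rbp4), which brings retinol to tissues, had log2 ratios of 0.24 and 0.71. Its membrane receptor Stra6, which takes up the retinol, had -0.20 and -0.33. Retinol dehydrogenase type 6 had -0.03 and -0.90, and Rbp7 had 0.45 and -0.27. None of these differences was past the threshold.

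The 7 genes named for a hormone or for induction had a median log2 ratio of -0.07, which was -0.19 on array 1, -0.17 on array 2 and -0.011 after normexp and loess. Of these, 1 was higher on both arrays, 2 lower on both and 4 mixed. Retinoic acid induced 12 (Rai12), which RefSeq names Elp5 after the Elongator complex that modifies transfer RNA, had signals of 5539 and 5458 in Cy5 and of 3724 and 3280 in Cy3. Its mean log2 ratio was 0.65 ± 0.21 (SE, n = 2; adjusted p = 0.122 by limma), and the groups did not overlap. Retinoic acid induced 1 (Rai1), a chromatin regulator, had -0.52 and -0.25, and stimulated by retinoic acid 13 had -0.39 and -0.17. Stra14, now Bhlhe40, a basic helix-loop-helix repressor of the clock, had 0.47 and -0.62, and Stra11, now the ligand Wnt8a, had 0.51 and -0.50. Progesterone receptor membrane component, a heme-binding protein and no nuclear receptor, had 13511 and 15353 in Cy5 and 15393 and 14879 in Cy3, with log2 ratios of -0.19 and 0.05.

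Genes of the same pathways outside the naming rule were followed in 4 lists. The list for the supply of retinoids and thyroid hormone had 10 spots, of which 8 were tested, with a median log2 ratio of -0.07, which was -0.10 on array 1 and 0.037 on array 2. Of these, both arrays put 3 above 0 and 4 below 0. Type I deiodinase, which converts thyroxine to the active thyroid hormone, had signals of 1960 and 1209 in Cy5 and of 472 and 378 in Cy3, and a mean log2 ratio of 1.87 ± 0.22 (SE, n = 2; adjusted p = 0.0580 by limma). Some alcohol dehydrogenases oxidise retinol among other alcohols. The spot named alcohol dehydrogenase 1, complex had log2 ratios of -1.43 and -2.16, and alcohol dehydrogenase 5 had -0.14 and -0.56. The spot named alcohol dehydrogenase family 1, subfamily A2 had 0.50 and 1.86. Family 3, subfamily A1 had 0.88 and 1.61, and family 1, subfamily A1 had -0.77 and -0.05. These family names have the form of the spot named aldehyde dehydrogenase family 1, subfamily A4. Which enzyme each spot reads was not tested. Cyp26, which degrades retinoic acid and is a direct target of its receptors, had signals of 435 and 447 in Cy5 and of 512 and 410 in Cy3, and log2 ratios of -0.24 and 0.13.

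The list for steroid and bile acid synthesis had 15 spots and 12 tested, with a median log2 ratio of 0.34. The median was 0.21 after normexp and loess and 0.22 over the 8 genes with both channels well above background. For the 12 genes, both arrays put 8 above 0 and 3 below 0. Cyp39a1, an oxysterol hydroxylase of bile acid synthesis, had signals of 348 and 201 in Cy5 and of 23.9 and 37.2 in Cy3, the latter well above background on array 2 only, where the log2 ratio was 2.43. The list of other coregulators, histone deacetylases, Sin3, chromatin remodelling and C-terminal binding proteins among them, had 18 spots, all tested, with a median of 0.03, which was 0.011 on array 1 and -0.025 on array 2. In it 6 were higher on both arrays, 7 lower on both and 5 mixed. Histone deacetylase 1 had log2 ratios of -0.47 and -0.36 and histone deacetylase 2 had 0.18 and 0.19. C-terminal binding protein 1 was on 2 spots that disagreed, with mean log2 ratios of -1.20 and 0.30.

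Genes known to respond to retinoic acid in embryonal carcinoma cells had 9 spots, all tested, of which 3 were higher on both arrays, 4 lower on both and 2 mixed. Their median log2 ratio was 0.13 over the means of both arrays, but -0.064 on array 1 and -0.021 on array 2. Laminin gamma 1, of the basement membrane, had log2 ratios of -1.29 and -1.24, laminin B1 had -0.55 and -0.74, and keratin 8, of the first epithelium of the embryo, had -1.73 and -2.16. Thrombomodulin had 0.58 and 1.51, and procollagen type IV alpha 2 had 1.43 and 0.34. Homeo box B1, a direct target of retinoic acid receptors, had 0.06 and 0.21. In each of the 4 lists no probe passed the adjusted p-value of 0.05.

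**Figure D3:**
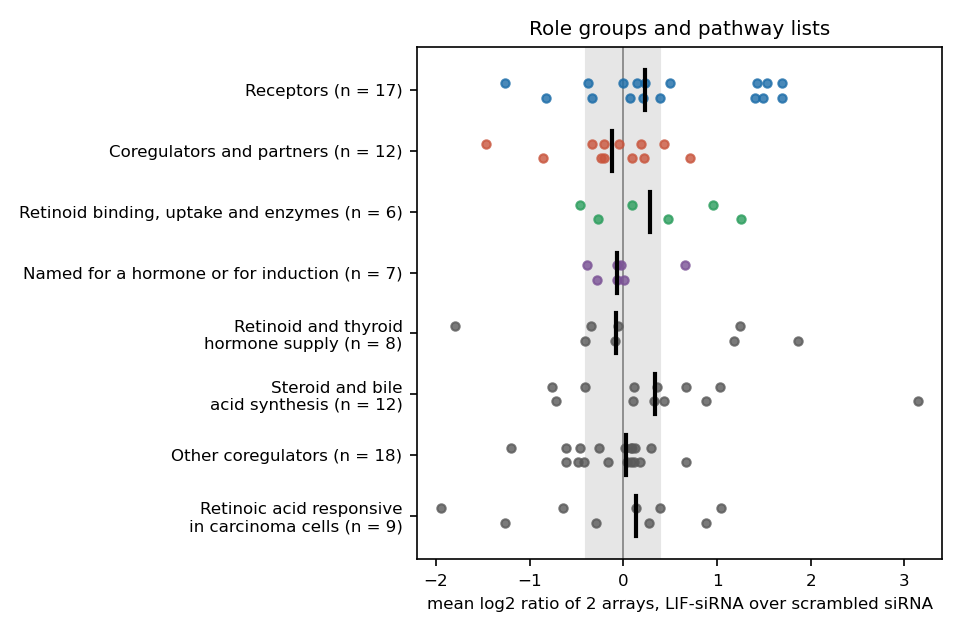
Mean log2 ratio of 2 arrays (x axis) for each tested gene of the 4 role groups (colored) and of the 4 pathway lists outside the naming rule (grey), with black bars at the medians and a grey band over the quartiles of all 8079 probes. The receptors have a median of 0.23 with a set of 6 above 1.4, and the coregulators a median of -0.12, which was 0.027 on array 1.

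The spread between arrays limits these values. Across the 42 genes the log2 ratios of the arrays had a Pearson r of 0.755, beside 0.639 across all 8079 probes. These are correlations across genes, which are not independent replicates and share the same 2 hybridizations. The median SD between the arrays was 0.35 for the 42 genes and 0.25 for all probes. The deposited normalization sets the median log2 ratio of each array near 0, so that only changes relative to the other genes could be seen.

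The ratios were also computed with another background correction. In the plot of deposited values against normexp and loess, Thra and Nr2f2 had mean log2 ratios of 1.49 and 1.47 after the second processing and Rarg 1.32, close to the deposited values. Rora had 1.10, Nr2f1 1.09 and Rxrb -1.05. Larger shifts were found for Vdr, with a mean signal of 143 in the brighter channel, at 0.69, for Rbp2 (48.2) at 0.28, for Crabp2 (42.3) at 0.19 and for Nrbf1 (298) at -0.96. Retinol dehydrogenase type 6 (95.6) moved from -0.47 to -0.04.

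**Figure D4:**
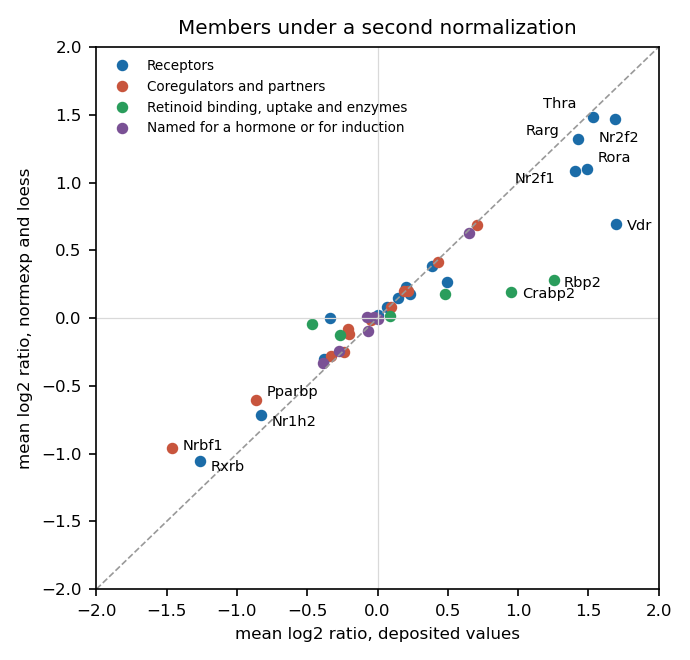
Mean log2 ratio of the 42 tested genes with the deposited processing (x axis) and with normexp background correction and loess (y axis), colored by role, with the dashed line at equal values. Thra, Rarg and Nr2f2 stay near the line, whereas Vdr, Rbp2 and Crabp2 lie far below it.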

How the data were processed

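Expression was measured on 2 two-color arrays, with LIF-siRNA-treated morulae in Cy5 and scrambled-siRNA-treated morulae in Cy3. The authors deposited Agilent Feature Extraction output. Its deposited intensity columns hold spot brightness, local background and a background-subtracted, dye-normalized processed signal with surrogates for low values, and its deposited log10 ratio follows rank-consistent lowess. A further deposited table, in log2, gives mean brightness per array and was not used. Genome build is not given in the sources used here.

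The log10 ratios were turned into log2. The fit left out controls and 23 gene spots with outlier flags (0 of the 49 genes). It covered the 8079 probes that on each array had a channel well above background, and used limma 3.58.1 (intercept only, two-sided, Benjamini-Hochberg) in R 4.3.3. Other steps used Python 3.11.15 and pandas 2.3.3. The test was checked on simulated data. The roles and lists, like the naming rule, were chosen with earlier results known. Named are the genes past the criteria, those past 2-fold on both arrays, the 8 highest and 8 lowest tested, and every other receptor, and others serve to describe a role. A spot named steroid receptor RNA activator 1 was counted only with the coregulators. Alternatives were normexp (offset 50) with loess, median centring, outliers kept, other filters on dim probes and signal, an intensity trend, a one-sample t-test, averaged spots of one name and each replicate left out. No slide block could be fitted, since each array holds both groups. The values of 1 receptor are not reported here, although counts and medians include it.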

Additional observations from a re-analysis of the deposited data

How the results depend on the processing

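The call of 0 of 42 genes by limma depended on the processing. It was 5 after median centring, a shift of the mean log2 ratio of each gene of -0.000848 (4.27% of all probes called). It was 4 of 40 with both channels well above background (3.09%) and 2 with normexp and loess (1.96%). It was 3 of 16 with only signals above 1000 in either dye kept (18.7%), and of these 3 Nr2f2 and Rarg passed 1000 in Cy5 only. With an intensity trend it was 11 (13.8%). It was 0 when outliers stayed in, when dim probes were not filtered (49 tested) and by the one-sample t-test. Rbp2, whose Cy3 signal was not well above background, was among the 5 and the 11. Nr2f2 and Thra were called in all 5 settings that gave calls, with adjusted p-values of 0.0115 to 0.0490 and 0.00707 to 0.0499. The cause was not tested. The 3 genes past the criteria as higher became 8 of 49 with no intensity threshold (6.55% of all spots) and 7 of 42 with detection in its place (6.96%), and the 0 lower became 3 (5.13%) and 2 (5.27%). The 8 include Crabp1 and Rbp2 and the 7 include Rbp2, genes without a Cy3 signal well above background. The 3 lower include Pparg, which was not well above background in either channel. Without replicate 1 there were 2 higher and 2 lower of 17 (7.29% and 7.46% of all spots), and without replicate 2 there were 3 higher and 0 lower of 16 (5.03% and 6.15%).

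Medians of the log2 ratio moved by more than the spread between arrays in a few settings. With normexp and loess they were 0.10 for retinoid handling, -0.011 for genes named for a hormone or induction, 0.21 for steroid and bile acid synthesis and 0.015 for retinoic acid responsive genes. With both channels above background, which left 4 and 8 genes, they were -0.089 for retinoid handling and 0.22 for steroid synthesis. With 1 replicate left out they ran from 0.022 to 0.22 for all 42 genes, 0.24 to 0.37 for receptors, -0.13 to 0.027 for coregulators, -0.19 to -0.17 for genes named for a hormone or induction, -0.10 to 0.037 for retinoid and thyroid hormone supply, -0.025 to 0.011 for other coregulators and -0.064 to -0.021 for retinoic acid responsive genes, negative on each array although the median of the means was 0.13. Among named genes the mean log2 ratio of Nr3c1 changed sign with centring (-0.00059) and that of Ppara with normexp and loess (0.0011). No paired analysis was possible because each ratio is already the difference of both groups within 1 array.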

Other observations

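Some spots name a nuclear receptor or a receptor-responsive gene without beginning with the terms used. Hepatic nuclear factor 4, a receptor of liver and extraembryonic endoderm, had signals of 111 and 245 in scrambled-siRNA-treated morulae and was not well above background in LIF-siRNA-treated morulae, with 13.8 on both arrays. It was at least 8.09-fold lower. The adjusted p-value of 0.0580 by limma belongs to the deposited ratio, taken against those undetected values, and is no support for the bound. The spot similar to Nr5a2, a receptor that acts on Oct4 in early embryos, had signals of 4979 and 4235 in Cy5 and of 4445 and 3628 in Cy3, and a mean log2 ratio of 0.19. The spot similar to retinoic acid receptor beta, which is induced by retinoic acid in many cells, had log2 ratios of -0.71 and -0.00.

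Thyrotropin releasing hormone, the hypothalamic peptide at the head of the thyroid axis, had signals of 276 and 175 in Cy5 and of 49.4 and 84.5 in Cy3, with log2 ratios of 2.48 and 1.05 (adjusted p = 0.0805 by limma). Serum/glucocorticoid regulated kinase had 0.16 and 0.74, the kinase-like spot 0.04 and -0.51, and glucocorticoid-induced gene 1 0.88 and -0.12. The spot similar to a vitamin D receptor-interacting protein had -0.61 and -0.21, and that similar to TRAP150 had -0.21 and -0.08. The spot similar to retinoic acid receptor responder 1 had 0.22 and 0.13, and cartilage derived retinoic acid sensitive protein had 0.17 and -0.28. These spots were chosen by their names after their values had been seen.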
